A study of Mus musculus with 4 samples.

Results

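Il10-positive butyrate cells were cultured mouse CD8+ T cells that held at least 1 unique transcript count (UMI) of Il10 and fewer than 3 UMIs of Gzmk, in cultures that had received sodium butyrate. They were 600 of the 5218 cells of the butyrate cultures and of the 9921 cells of the whole series, with 261 in the library of mouse 1 and 339 in that of mouse 2. These were 10.2% and 12.8% of the cells of each butyrate library. The Il10 and Gzmk counts themselves chose the cells, so the levels of these 2 genes are given as a description, with no test. Cells were barcodes with at least 6500 UMIs, at least 500 genes and under 10% mitochondrial UMIs. Il10-positive cells were compared with 3651 Il10-negative butyrate cells (0 Il10 and under 3 Gzmk UMIs; 1857 and 1794 in mice 1 and 2) and with 967 Gzmk-high butyrate cells (3 or more Gzmk UMIs; 443 and 524).

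All cells carried the gBT-I T cell receptor transgene on a CD45.1 background, a receptor for the gB498-505 peptide of herpes simplex virus. Spleen cells were activated with peptide-pulsed B6 splenocytes and LPS and expanded in recombinant human IL-2. Cultures received either 0.5 mM sodium butyrate from day 3 to day 5 (But) or PBS (Ctrl). Sorting on day 6 kept viable cells positive for CD8 and Vα2, whose RNA was captured in droplets and sequenced from the 3′ end. There were 2 libraries per treatment, all of batch 1. The library names give 2 mice, each with 1 butyrate and 1 control culture, numbered 1 and 2 here. The cells have a single receptor specificity and were activated in vitro, with LPS and added IL-2 present in every group.

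IL-10 is a cytokine that restrains antigen-presenting cells and inflammatory T cells, and it signals through the IL-10 receptor and STAT3. Effector CD8 T cells can make it for a time after strong stimulation, when they are also at their most cytotoxic. In T cells its gene is known to be switched on by factors that include c-MAF, IRF4 with BATF, Blimp-1 (Prdm1) and the aryl hydrocarbon receptor. The gene lies in a cluster of IL-10 family cytokine genes that also holds Il24.

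Library totals ran between 64388093 and 76522004 UMIs, and pairs of libraries shared 1 to 5 cell barcodes. Among Il10-positive cells, 2 of 600 had a barcode that also occurred in another library, 1 in each mouse. A doublet caller marked 0 to 8 cells per library and no cell was removed on that ground. Each class was summed within each library, so a p-value rests on the spread between 2 cultures, with information shared across genes, and on 6 class sums that include the Gzmk-high cells.

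Depth differed between the classes, and a deeper cell has more chances to show an Il10 UMI. Il10-positive cells had medians of 25566 and 24971 UMIs in mice 1 and 2, against 22924 and 21462 UMIs in Il10-negative cells and 33422 and 30009 UMIs in Gzmk-high cells. Median mitochondrial shares were 3.79% and 4.03% in Il10-positive cells and 4.18% and 4.35% in Il10-negative cells. A set of Il10-negative cells of the same number and near-equal depth (medians of 25570 and 24957 UMIs) was therefore drawn from each library and is called depth-matched below. Shares of cells with a UMI were compared after each cell had been thinned to 8000 UMIs, which left out 7 and 3 Il10-positive and 48 and 56 Il10-negative cells below that depth.

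Il10 transcripts were spread very unevenly over the cells. In mouse 1, 91 Il10-positive cells had 1 Il10 UMI, 45 had 2, 44 had 3 or 4, 50 had 5 to 9 and 31 had 10 or more, up to 64 in a single cell. In mouse 2 the corresponding cells were 134, 48, 60, 50 and 47, up to 107 UMIs. In both mice most positive cells therefore held more than 1 Il10 UMI. The 27 and 34 cells with the most Il10 held 41.1% and 48.8% of the 1183 and 1766 Il10 UMIs of the class. Over all cells with under 3 Gzmk UMIs, the variance of the Il10 count was 12.2 and 23.6 times its mean in the butyrate libraries, against 1.70 and 1.5 times in the control libraries, where a value of 1 is what even counting gives.

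The share of cells with an Il10 UMI was higher in butyrate than in control cultures at every depth examined. Over all cells it was 12.7% and 16.1% in butyrate libraries and 1.16% and 1.33% in control libraries, so the groups did not overlap. The means were 14.4% ± 2.44 in butyrate and 1.24% ± 0.116 in control (SD, n = 2 each), 13.1 percentage points apart. Thinned to 8000 UMIs, the shares were 7.50% and 9.71% in butyrate libraries and 0.402% and 0.357% in control libraries. Cells with under 3 Gzmk UMIs, ranked into 5 equal groups from shallow to deep, had an Il10 UMI in 9.20%, 10.9%, 11.3%, 14.2% and 16.0% of cells in butyrate mouse 1, and in 10.8%, 13.8%, 16.2%, 19.5% and 19.2% in butyrate mouse 2. The same groups ran between 0.244% and 3.16% in control mouse 1 and between 0.380% and 3.04% in control mouse 2. The shallowest butyrate cells thus had a higher share than the deepest control cells. In barcodes with too few UMIs to be cells, Il10 made up 17.6 and 27.0 CPM (UMIs of the gene per 1000000 UMIs in all) in butyrate libraries, against 0.858 and 0.543 CPM in control libraries. Kept cells had 21.0 and 31.8 CPM in butyrate libraries and 0.625 and 0.689 CPM in control libraries. A barcode with too few UMIs held a mean of only 4.49 and 3.08 UMIs in butyrate libraries. Free Il10 RNA was thus far lower in control libraries, whose cells do not give the background of butyrate droplets, and no cell type in these sorted cultures served as one that should lack Il10. The part of free RNA in the butyrate shares was not tested.

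**Figure D1:**
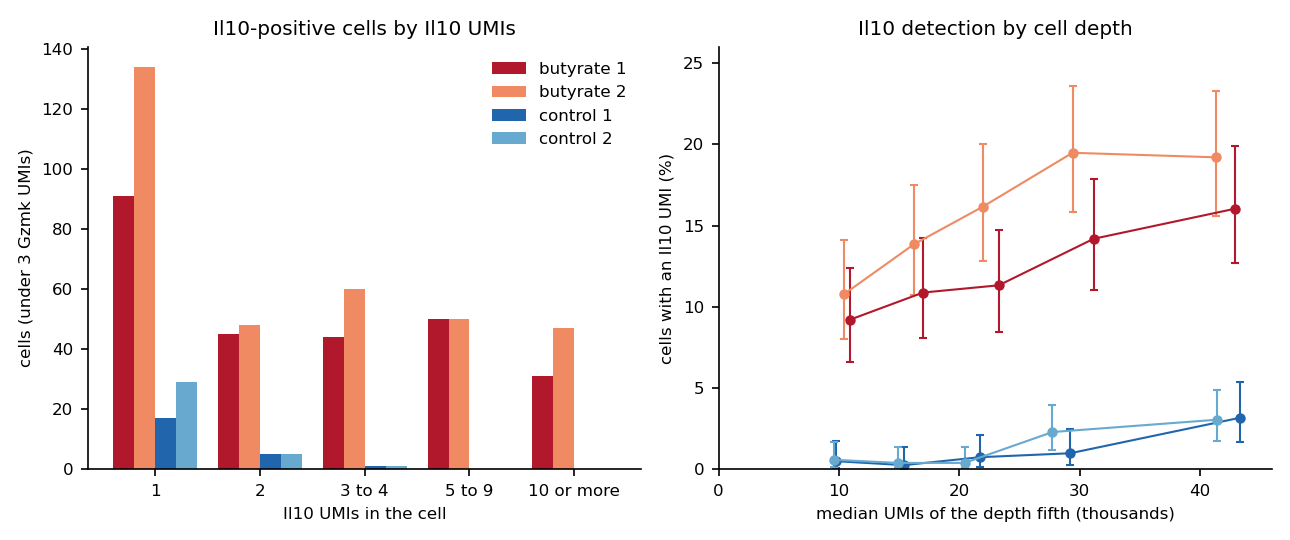
Il10 UMIs per Il10-positive cell (number of cells per count class, butyrate mice 1 and 2), and share of cells with an Il10 UMI (percent, exact binomial 95% intervals for counting error) in 5 groups of cells ranked by total UMIs, for butyrate and control libraries. Butyrate shares lie between 9.20% and 19.5%, and control shares between 0.244% and 3.16%.

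The genes named with this class, Maf, Irf4, Batf3 and Tnfrsf8 beside Il10, were chosen with results of these data in view. Of them, 3 of 4 tested rose in Il10-positive cells and Irf4 did not pass. This is read against a background of 8.02% of all genes tested that were higher. Across 11736 genes, 941 were higher and 385 lower in Il10-positive than in Il10-negative cells (edgeR quasi-likelihood test with the library as a term, Benjamini-Hochberg adjusted p under 0.05), which is 11.3% in all (8.02% higher and 3.28% lower), with a median log2 change of 0.01. Scaling by total UMIs in place of the trimmed mean of M-values (TMM) shifted the median to -0.08 and turned the split to 465 higher and 1065 lower, so small changes in either direction depend on the scaling. Against depth-matched Il10-negative cells 453 genes were higher (4.12% of 10983) and 218 lower (1.98%), 6.11% in all, and 604 of these 671 had been called the same way before. With butyrate library 1 or 2 left out, and the control libraries supplying the spread, 36 and 90 genes passed. Of the genes named below, Fcmr, Pparg, Furin, Maf, Rgs1, Emp1, Emilin2, Tcf7, Tnfrsf8, Tnfrsf9, Tnfrsf4, Icos, Il2ra, Gzma and Gzmb passed in both of these fits, and every other gene missed in at least 1.

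**Figure D2:**
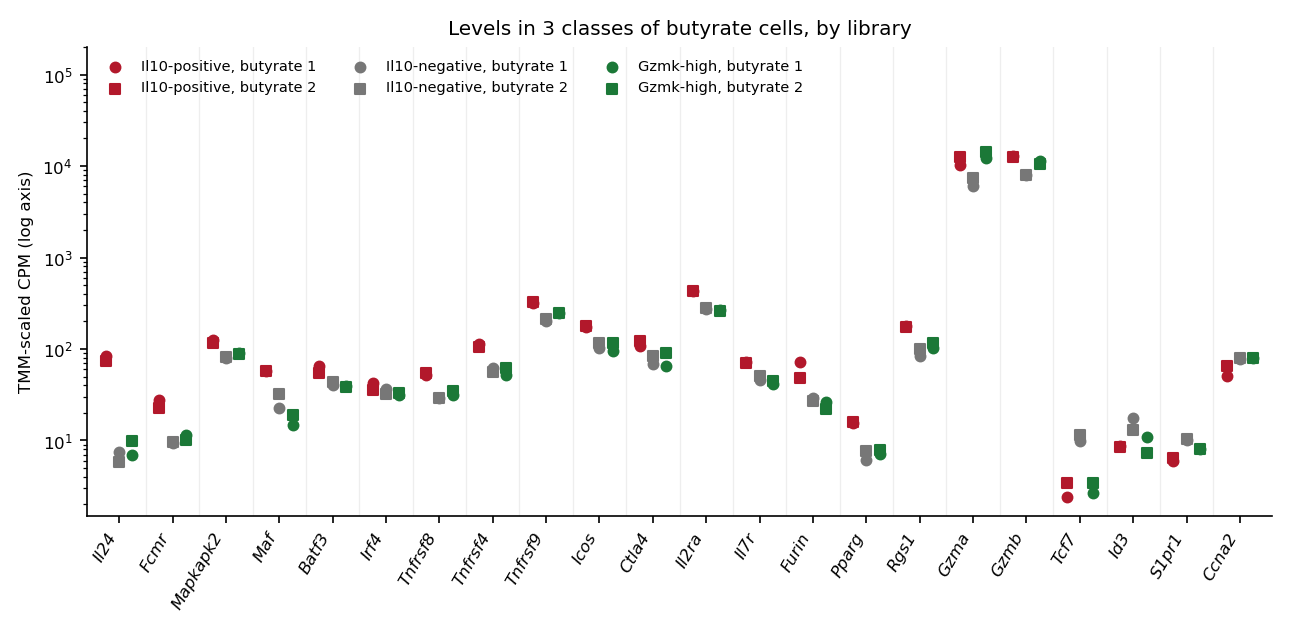
Level in TMM-normalised CPM (log axis) of genes named in the text, in Il10-positive, Il10-negative and Gzmk-high butyrate cells, 1 point per mouse. Il24 stands at 83.3 and 74.3 CPM in Il10-positive cells and at 7.52 and 5.87 CPM in Il10-negative cells.

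Il10 itself summed to 167 and 197 CPM in Il10-positive cells and to 0 in Il10-negative cells by the rule, and to 17.9 and 25.0 CPM in Gzmk-high cells. Maf, which encodes the transcription factor c-MAF, had 57.0 and 57.1 CPM in Il10-positive cells, against 22.5 and 32.6 CPM in Il10-negative cells and 14.8 and 19.1 CPM in Gzmk-high cells. Both Il10-positive sums lay above all others. The log2 change over Il10-negative cells was 1.05 (SE 0.10, edgeR adjusted p = 1.42e-05) and it was 1.05 over depth-matched cells. Without the library as a term Maf did not pass (adjusted p = 0.116). Tnfrsf8, which encodes the TNF receptor CD30, had 51.7 and 54.9 CPM in Il10-positive cells, against 28.9 and 29.0 CPM in Il10-negative cells (log2 change 0.88, SE 0.06, adjusted p = 5.14e-09). Batf3, a basic leucine zipper partner of JUN proteins, had 65.6 and 54.3 CPM in Il10-positive cells, against 40.4 and 43.7 CPM in Il10-negative cells (log2 change 0.50, SE 0.07, adjusted p = 5.56e-05). Irf4, an interferon regulatory factor induced by receptor signalling, had 42.8 and 35.2 CPM in Il10-positive cells, against 36.4 and 32.4 CPM in Il10-negative cells. Its groups overlapped and it did not pass (log2 change 0.17, SE 0.08, adjusted p = 0.168), although it passed against Gzmk-high cells (0.27, adjusted p = 0.0469).

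The markers were far from universal among the cells. At 8000 UMIs per cell, Maf was seen in 21.7% and 25.9% of Il10-positive cells, against 13.3% and 16.7% of depth-matched Il10-negative cells. Tnfrsf8 was seen in 26.8% and 28.0% of Il10-positive cells, against 16.5% and 14.6% of depth-matched cells. Batf3 was seen in 23.6% and 18.2% of Il10-positive cells, against 18.0% and 16.7% of depth-matched cells, so mouse 2 showed little difference. Irf4 was seen in 24.8% and 20.2% of Il10-positive cells, against 24.3% and 21.4% of depth-matched cells, lower in mouse 2 and higher in mouse 1. None of Maf, Irf4, Batf3 and Tnfrsf8 was seen in 34.3% and 37.5% of Il10-positive cells and in 54.1% and 52.4% of depth-matched cells. At this depth many cells that express such genes show no UMI. The cells were CD8 T cells by their transcripts, since Cd8a or Cd8b1 was seen in 87.4% and 90.8% of Il10-positive cells and in 80.0% and 83.6% of depth-matched cells. Il10 is fixed by the rule and the other markers were chosen with these results known, so their levels describe the class and do not test its label.

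Il24, an IL-10 family cytokine gene of the same cluster as Il10, showed the largest rise of any named gene. It had 83.3 and 74.3 CPM in Il10-positive cells, against 7.52 and 5.87 CPM in Il10-negative cells and 6.91 and 9.86 CPM in Gzmk-high cells. Both Il10-positive sums were many times all the others, with a log2 change over Il10-negative cells of 3.55 (SE 0.11, edgeR adjusted p = 3.52e-11) and of 3.96 over depth-matched cells. When the spread came from control cells too, the change was 3.55 but did not pass (adjusted p = 0.123), and with either butyrate library left out the adjusted p rounded to 1, with changes of 3.65 and 3.46. After thinning, Il24 was seen in 22% and 15.8% of Il10-positive cells and in 1.18% and 1.79% of depth-matched cells. Of the Il24-positive cells with under 3 Gzmk UMIs, 42.9% and 47.3% had Il10, while Il10-positive cells were 12.3% and 15.9% of all such cells. Conversely, 32.2% and 26% of Il10-positive cells had Il24. Il10-positive cells held 61.8% and 71.8% of the Il24 UMIs of cells with under 3 Gzmk UMIs. Il10-positive cells with an Il24 UMI carried a mean of 6.32 and 8.98 Il10 UMIs, against 3.68 and 3.89 in Il10-positive cells without one. The cells with Il24 were also deeper, with medians of 32455 and 26462 UMIs, against 23566 and 24505 UMIs in those without it. The single cell with the most Il24 held 10.0% and 12.6% of the class's Il24 UMIs.

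Other genes on either side of Il10 on mouse chromosome 1 were also higher. Il10 lies at 131019845 to 131024974 (GRCm38, plus strand). Il24 (130882074 to 130887454, minus strand) ends 132 kb before it, and Fcmr (130865669 to 130880791, plus strand), which encodes an Fc receptor for IgM, ends 139 kb before it. Mapkapk2 (131053700 to 131097826), a kinase downstream of p38, begins 28.7 kb after it, and Dyrk3 (131127455 to 131138340), a dual-specificity kinase, begins 102 kb after it. Fcmr had 27.5 and 22.6 CPM in Il10-positive cells, against 9.32 and 9.69 CPM in Il10-negative cells and 11.4 and 10.1 CPM in Gzmk-high cells, with no overlap (log2 change 1.39, SE 0.10, edgeR adjusted p = 5.24e-09). Mapkapk2 had 126 and 116 CPM in Il10-positive cells, against 80.5 and 82.4 CPM in Il10-negative cells (0.56, adjusted p = 3.31e-08). Dyrk3 had 16.2 and 14.1 CPM in Il10-positive cells, against 11 and 11.4 CPM in Il10-negative cells (0.43, adjusted p = 0.0111). It passed against depth-matched cells (0.57, adjusted p = 0.0166) but not with thinned cells (0.16, adjusted p = 0.763) or against Gzmk-high cells (0.22, adjusted p = 0.301). Within 400 kb of Il10 the matrix held 17 other protein-coding genes, of which 10 passed the filter on low counts. Of those 10, 4 rose, 1 fell (Srgap2, -0.41) and 5 did not pass. Over all genes tested, 8.02% rose and 3.28% fell. Srgap2 missed the threshold against depth-matched cells (edgeR adjusted p = 0.0502) and with thinned cells (adjusted p = 0.236). Il19 and Il20, the other cytokine genes between Il24 and Il10, were too low to test.

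By the difference in the share of cells with a UMI over depth-matched cells at full depth, the genes whose pattern was most like that of Il10 were Il24 (24.4 percentage points), Tnfrsf8 (22.9), Furin (19.3), Tnfrsf4 (19.0), Dcun1d3 (18.9) and Fcmr (18.1), each a mean over 2 libraries. Furin, a proprotein convertase that matures TGF-beta and other ligands, had 73.0 and 48.4 CPM in Il10-positive cells, against 28.8 and 26.8 CPM in Il10-negative cells (log2 change 1.11, SE 0.09, edgeR adjusted p = 7.56e-07). Dcun1d3, a regulator of cullin neddylation, had 41.5 and 32.2 CPM in Il10-positive cells, against 23.7 and 22.6 CPM in Il10-negative cells (0.66, adjusted p = 4.89e-06). In neither gene did the classes overlap. Without the library as a term, Furin missed the threshold (adjusted p = 0.0592).

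Stretches before the starts of Tnfrsf8, a marker of the class, and Fcmr, a neighbour of Il10, are shown because both genes rose in Il10-positive cells and still passed when either butyrate library was left out. They come from RefSeq (GRCm38.p6) and were searched on both strands for TGANTCA, a palindrome and the kind of site that AP-1 and BATF factors bind, which is in capitals. Of 32851 stretches of 250 bases before gene starts, 2217 (6.75%) held the motif. Tnfrsf8 (chr4:145315165-145315414, minus strand) held it 1 time, beginning 132 bases before the start, and Fcmr (chr1:130865527-130865668, plus strand, 142 bases) held it 0 times in this window. A match is not evidence of binding.
Tnfrsf8: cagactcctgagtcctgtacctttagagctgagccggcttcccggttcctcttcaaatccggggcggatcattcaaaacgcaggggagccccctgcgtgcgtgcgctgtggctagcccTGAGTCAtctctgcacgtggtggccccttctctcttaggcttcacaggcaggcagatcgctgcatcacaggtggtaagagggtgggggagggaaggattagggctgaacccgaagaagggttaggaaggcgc
Fcmr: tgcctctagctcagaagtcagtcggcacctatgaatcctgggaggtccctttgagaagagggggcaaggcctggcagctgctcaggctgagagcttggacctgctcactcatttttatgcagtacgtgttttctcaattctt

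Of 28 genes listed as Il10 regulators, 27 were tested, 11 rose, 2 fell and 14 did not pass, with a median log2 change of 0.17 against 0.01 over all genes, of which 8.02% rose and 3.28% fell. Scaled by total UMIs, 8 of the 27 rose and 4 fell. Ahr, the ligand-activated aryl hydrocarbon receptor, had 17.4 and 15.2 CPM in Il10-positive cells, against 7.87 and 10.3 CPM in Il10-negative cells and 4.2 and 5.54 CPM in Gzmk-high cells (0.83 over Il10-negative cells, SE 0.13, edgeR adjusted p = 0.000103). Junb, an AP-1 subunit, had 209 and 217 CPM in Il10-positive cells, against 147 and 156 CPM in Il10-negative cells (0.49, adjusted p = 1.06e-08). Nfil3 (0.42), Id2 (0.46), Nfkb1 (0.33), Jund (0.32), Batf (0.25), Nfatc2 (0.22) and Bhlhe40 (0.17) rose as well. Prdm1, which encodes Blimp-1, had 32.9 and 28.2 CPM in Il10-positive cells, against 25.3 and 27.1 CPM in Il10-negative cells, and did not pass (0.21, adjusted p = 0.120), although it did against depth-matched cells (0.47, adjusted p = 0.00577). Creb1 (-0.33) and Stat4 (-0.27) fell, but neither passed against depth-matched cells. Of 14 tested AP-1 and BATF genes, a list that shares members with the regulators, 5 rose and none fell.

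Of 11 tested costimulatory receptors of the TNF receptor and CD28 families 6 rose and none fell, with a median of 0.21. For this and the other lists of this paragraph, the background over all genes was 8.02% higher and 3.28% lower. Tnfrsf9, which encodes the activation receptor 4-1BB, had 316 and 330.1 CPM in Il10-positive cells, against 200.4 and 210.4 CPM in Il10-negative cells (log2 change 0.65, SE 0.03, edgeR adjusted p = 1.17e-11). Tnfrsf4, which encodes OX40, had 114 and 106 CPM in Il10-positive cells, against 62.8 and 56.3 CPM in Il10-negative cells (0.88, adjusted p = 0.000110). Icos had 174 and 177 CPM in Il10-positive cells, against 102 and 117 CPM in Il10-negative cells (0.68, adjusted p = 5.24e-09). In all 3 genes both Il10-positive sums lay above both Il10-negative sums. Tnfrsf18 (GITR, 0.50) and Cd28 (0.21) rose too. Of 14 inhibitory receptor and Tox genes 5 rose and none fell, and these were Cd200r1 (0.58), Ctla4 (0.60), Havcr2 (TIM-3, 0.54), Pdcd1 (PD-1, 0.46) and Entpd1 (CD39, 0.32). Lag3 (0.18) and Tigit (0.12) did not pass. Of 14 tested genes listed for type 1 regulatory T cells, which are IL-10-producing CD4 cells without Foxp3, 7 rose and none fell, with a median of 0.39, and all 7 also belong to other lists here. The CD30 ligand gene Tnfsf8 was at 0.282 and 0.447 CPM in Il10-positive cells and 1.14 and 1.28 CPM in Il10-negative cells (-1.70, adjusted p = 0.0414), a level of few UMIs.

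Among 20 tested cytokine and ligand genes other than Il10, 7 rose and 1 fell, with a median of 0.38. The shares over all genes were 8.02% higher and 3.28% lower. Osm, the gene of oncostatin M, had 43.2 and 46.8 CPM in Il10-positive cells, against 30.6 and 28.1 CPM in Il10-negative cells (log2 change 0.62, edgeR adjusted p = 3.21e-06). Tgfb1 (0.36), Lif (0.95), Csf2 (0.95) and Tnf (0.30) rose. Il4 passed (2.72, adjusted p = 0.00249), with 2.40 and 13.6 CPM in Il10-positive cells against 0.971 and 1.44 CPM in Il10-negative cells. In mouse 2, however, 1 cell held 90 of the 122 Il4 UMIs of the class, so the level there rests on that cell. None of 5 tested chemokine genes passed, at a median of 1.81. Against depth-matched cells 1 of 4 rose, where 4.12% of all genes rose. By DESeq2 1 of 5 rose, where 457 of 11736 genes rose. In cells with no Mki67 or Top2a UMI 1 of 4 rose, where 43 of 6196 genes rose. Ccl4 had 339.9 and 202 CPM in Il10-positive cells, against 56.2 and 80.0 CPM in Il10-negative cells (1.99, SE 0.51, adjusted p = 0.214). Ccl3 had 66.2 and 23.0 CPM in Il10-positive cells, against 7.50 and 12.4 CPM in Il10-negative cells (2.12, SE 1.00, adjusted p = 0.415). For both chemokines each Il10-positive sum lay above both Il10-negative sums. Ifng, the interferon gamma gene, had 63.1 and 22.2 CPM in Il10-positive cells, against 17.2 and 10.5 CPM in Il10-negative cells (1.57, adjusted p = 0.312).

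Cytotoxic granule genes at the highest levels were higher in Il10-positive cells. Gzma had 10286 and 12686 CPM in Il10-positive cells, against 6089 and 7482 CPM in Il10-negative cells (log2 change 0.76, SE 0.02, edgeR adjusted p = 5.56e-15). Gzmb had 12891 and 12654 CPM in Il10-positive cells, against 7937 and 8009 CPM in Il10-negative cells (0.68, SE 0.02, adjusted p = 3.16e-14). Neither gene overlapped between these classes. Nkg7 (0.33) and Srgn (serglycin, 0.40) also rose, and the other 12 of 16 tested genes of the list did not pass. Of all genes tested, 8.02% rose and 3.28% fell. Against depth-matched cells 4 of 16 genes of the list rose and 1 fell, where 4.12% of all genes rose and 1.98% fell. By DESeq2 5 of 16 rose and none fell. Perforin (Prf1) had 892 and 728 CPM in Il10-positive cells, against 387 and 429 CPM in Il10-negative cells, and did not pass (0.98, SE 0.15, adjusted p = 0.110). Without the library as a term Gzma did not pass (adjusted p = 0.160). UMIs of close granzyme paralogues may be assigned to the wrong member.

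Genes of the response to IL-2 and STAT5 rose in 11 of 17 tested members and fell in none (median 0.32). All lists of this paragraph are set against 8.02% higher and 3.28% lower over all genes. Il2ra, the high-affinity IL-2 receptor chain, had 434 and 429.7 CPM in Il10-positive cells, against 276 and 277 CPM in Il10-negative cells (log2 change 0.64, SE 0.03, edgeR adjusted p = 7.71e-12). Socs1 (0.40), Socs3 (0.29), Bcl3 (0.38), Il27ra (0.38), Il21r (0.27) and Il4ra (0.27) made up the 6 of 13 tested genes of the IL-10 receptor and STAT3 pathway that rose. The receptor gene Il10ra had 11 and 12 CPM in Il10-positive cells, against 9.67 and 11.2 CPM in Il10-negative cells, and did not pass (0.14, adjusted p = 0.528). Of 20 immediate early genes 6 rose and 2 fell. Among those that rose were Dusp4 (0.71), a MAP kinase phosphatase, and Nfkbia (0.37), the NF-kappaB inhibitor. Against depth-matched cells 6 of 18 immediate early genes rose and none fell, and by DESeq2 5 of 20 rose and none fell. Of 17 tested genes of the endoplasmic reticulum and unfolded protein response 11 rose and none fell, led by Xbp1, a factor of secretory cells, with 161 and 182 CPM in Il10-positive cells against 115 and 113 CPM in Il10-negative cells (0.60, adjusted p = 6.69e-08). Glycolysis genes rose in 10 of 18 tested, with a median of only 0.12. Scaled by total UMIs this count was 3, with 2 lower, and against depth-matched cells it was 5. Cholesterol synthesis genes rose in 3 of 20 and in none against depth-matched cells.

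Further genes with large rises were Pparg, a lipid-activated nuclear receptor (15.4 and 15.8 CPM in Il10-positive cells, 6.16 and 7.60 CPM in Il10-negative cells, log2 change 1.17), and Rgs1, a regulator of G protein signalling (181 and 174 CPM in Il10-positive cells, 83.8 and 101 CPM in Il10-negative cells, 0.94). Ermn (1.12), Adora3 (an adenosine receptor, 0.99), Rgs16 (0.98), Hbegf (a growth factor, 0.93), Emp1 (0.92) and Emilin2 (a matrix glycoprotein, 0.89) completed the largest increases at 10 CPM or more. None of these overlapped between the Il10-positive and Il10-negative classes.

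Tcf7 and a few other genes of stem-like and memory cells were lower. Tcf7, which encodes TCF-1, had 2.40 and 3.46 CPM in Il10-positive cells, against 9.86 and 11.6 CPM in Il10-negative cells (log2 change -1.85, SE 0.17, edgeR adjusted p = 1.21e-07), and 2.64 and 3.47 CPM in Gzmk-high cells. The Il10-positive and Il10-negative classes did not overlap, whereas the Il10-positive and Gzmk-high classes did. A Tcf7 UMI was held by 14 and 23 Il10-positive cells. Of 16 tested genes of the list, 4 fell, among them Tcf7, Id3 (-0.82) and S1pr1 (-0.71), and 1 rose. Over all genes, the background for this list and for the homing receptors below, 3.28% fell and 8.02% rose. The gene of the list that rose was Il7r, the IL-7 receptor chain CD127 (0.55, adjusted p = 7.27e-07). It had 72.0 and 69.7 CPM in Il10-positive cells, against 45.5 and 50.7 CPM in Il10-negative cells. The median of the list was -0.08, and 6 of the 16 had a positive sign. Against depth-matched cells 3 genes rose and 3 fell, and S1pr1 did not pass. By DESeq2 1 gene rose and 0 fell, with no adjusted p given for Tcf7, Id3 and S1pr1. Homing receptors went both ways, with 5 of 19 higher, including Ccr4 (0.68) and Cxcr4 (0.57), and 4 lower, including Itga4 (-0.58). Against depth-matched cells 5 of 17 homing receptors rose and 1 fell, where 4.12% of all genes rose and 1.98% fell. By DESeq2 2 of 19 rose and 1 fell. The largest decreases at 10 CPM or more after Tcf7 were in Ccng2, Id3, Neil3, Clec2i, S1pr1, Calhm6, Ighm, Ccnf, Heca, Trp53inp1 and Mbd4, between -0.83 and -0.61.

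**Figure D3:**
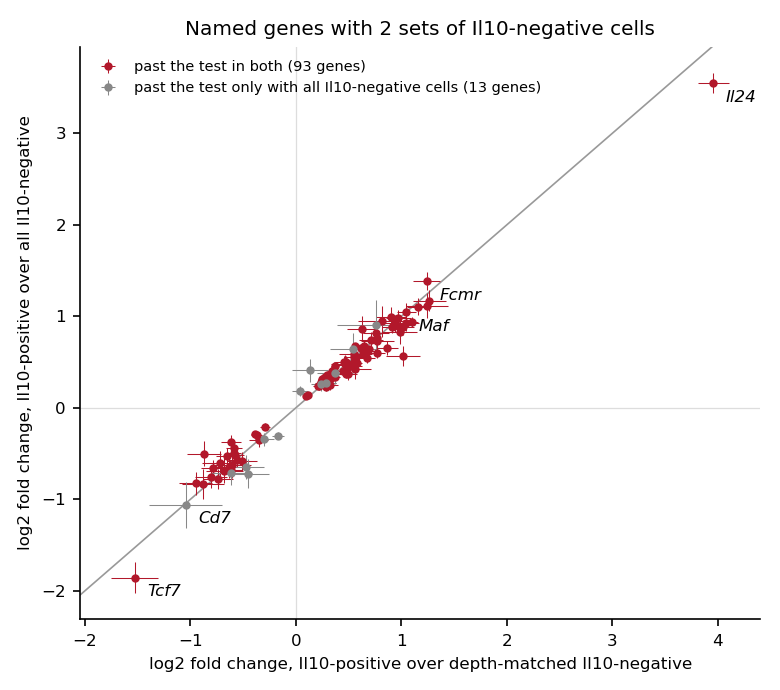
Log2 change in Il10-positive cells for the genes named in the text, over depth-matched Il10-negative cells (x axis) and over all Il10-negative cells (y axis), 1 point per gene with standard errors. Of 106 genes that passed against all Il10-negative cells, all had the same sign and 93 passed in both.

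Transcripts of dividing cells were lower in Il10-positive cells. Of 51 G2 and M phase genes 35 fell and none rose, with a median of -0.27. Of 36 S phase genes 12 fell and none rose (-0.10). Over all genes tested, 3.28% fell and 8.02% rose. Nusap1, a spindle protein gene, had 67.1 and 73.4 CPM in Il10-positive cells, against 103 and 94.8 CPM in Il10-negative cells (-0.49, edgeR adjusted p = 2.81e-06). Against depth-matched cells 35 G2 and M phase genes and 7 S phase genes fell. At 8000 UMIs per cell, Mki67 or Top2a was seen in 72.8% and 76.8% of Il10-positive cells, against 87.5% and 88.1% of depth-matched Il10-negative cells. Turned round, Il10 was seen in 14.7% (44 of 300) and 18.1% (60 of 332) of butyrate cells with no Mki67 or Top2a UMI, and in 6.41% (113 of 1763) and 8.67% (151 of 1742) of those with such a UMI, all with under 3 Gzmk UMIs. The exact binomial intervals of these shares, which cover counting error only, did not overlap in either mouse. In cells with no Mki67 or Top2a UMI before thinning, 43 genes were higher and 15 lower of 6196 tested. Depth was not matched there, and the Il10-positive cells were deeper on average in both mice. The 38 and 47 Il10-positive cells held 832208 and 839778 UMIs in all. The 157 and 175 Il10-negative cells held 2439709 and 2633376 UMIs. In this comparison Il24 (5.23, adjusted p = 1.51e-09), Maf (1.65, adjusted p = 1.51e-05), Furin (1.27, adjusted p = 0.000560), Tnfrsf4 (0.89, adjusted p = 0.00450) and Tcf7 (-3.35, adjusted p = 0.000612) passed too. Tnfrsf8 (0.51), Batf3 (0.81), Gzma (0.69) and Gzmb (0.91) did not.

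Several defining markers of other cell types were at or near 0 in Il10-positive cells, while other listed markers were present in both classes. Sums over a list are in raw CPM here, while counts of genes that rose or fell come from the TMM-scaled fit. Over all genes tested in that fit, 8.02% rose and 3.28% fell. Foxp3 was at 0 in Il10-positive cells of mouse 1 and had 1 UMI in those of mouse 2, and Cd4 was seen in 3 and 4 cells, with 0.706 and 0.447 CPM in Il10-positive cells against 0.558 and 0.675 CPM in Il10-negative cells. Ctla4, Izumo1r and Lrrc32 were the 3 of 6 tested CD4 and regulatory T cell markers that rose. The 8 listed genes summed to 159 and 172 CPM in Il10-positive cells, against 118 and 135 CPM in Il10-negative cells. Most of this sum in Il10-positive cells was Ctla4. Of 10 CD8 T cell genes 8 rose slightly and none fell (median 0.16). Scaled by total UMIs, 4 of these rose and 1 fell. Their raw sums, which are not on the TMM scale, were 10056 and 10851 CPM in Il10-positive cells and 10204 and 10832 CPM in Il10-negative cells. The 13 myeloid markers summed to 127 and 146 CPM in Il10-positive cells, against 168 and 179 CPM in Il10-negative cells. Most of this sum in Il10-positive cells was Ly6c2, whose level is given below with the Gzmk-high cells. Adgre1, C1qa, C1qb and C1qc were at 0 in every sum. The 10 B and plasma cell markers summed to 38.3 and 34.0 CPM in Il10-positive cells and 53.1 and 53.0 CPM in Il10-negative cells, with Ms4a1 and Pax5 among those at 0. The 12 dendritic cell markers summed to 56.7 and 74.4 CPM in Il10-positive cells and 62.3 and 68.4 CPM in Il10-negative cells, and 1 of 7 tested (Cd74) rose. The 8 NK cell markers summed to 74.0 and 78.9 CPM in Il10-positive cells and 84.5 and 104 CPM in Il10-negative cells, with Ncr1 at 0. The 6 gamma-delta T cell markers summed to 122 and 133 CPM in Il10-positive cells and 118 and 121 CPM in Il10-negative cells, and 2 of 4 tested (Tcrg-C2, 0.47, and Tcrg-C4, 0.41) rose. Against depth-matched cells 1 of these 4 rose and 1 fell. Mast cell, basophil, erythroid and platelet markers summed to under 3 CPM in each list. The part of these transcripts in the other results was not tested.

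Set against Gzmk-high cells of the same cultures, Il10-positive cells had 596 genes higher (5.08%) and 503 lower (4.29%), 9.36% of 11736. Il24 (log2 change 3.21), Ermn (1.84), Maf (1.74), Ahr (1.72), Furin (1.31) and Asb2 (1.30), a ubiquitin ligase subunit gene, were the most raised. Asb2 had 58.4 and 58.0 CPM in Il10-positive cells, against 19.99 and 26.9 CPM in Gzmk-high cells, with no overlap. Klre1 (-1.37) and Klrb1c (-1.0), both NK-type receptors, Ms4a4c (-1.0), Ly6c2 (-0.92), Arsb (-0.85) and Fcer1g (-0.79) were the most lowered. Ly6c2 had 117 and 132 CPM in Il10-positive cells, against 231 and 244 CPM in Gzmk-high cells. All 4 tested NK cell markers and 6 of 16 cytotoxic granule genes were lower. Gzma was among them (-0.21, edgeR adjusted p = 3.4e-06), whereas Gzmb was higher (0.24, adjusted p = 8.22e-07). The G2 and M phase list fell here as well, in 29 of 51 genes. Il10 was also seen in Gzmk-high cells, in 7.0% and 7.85% of them at 8000 UMIs, against 7.61% and 10.2% of cells with under 3 Gzmk UMIs.

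Cells on either side of the limits of the class are given as a description. In raw CPM, the cells just inside the Il10 limit (1 UMI, 91 and 134 cells) had 19.7 and 41.1 CPM of Il24, against 7.79 and 6.09 CPM just outside it (0 UMIs). They had 3.28 and 2.76 CPM of Tcf7, against 10.2 and 12 CPM outside. For Maf they had 45.5 and 32.3 CPM, against 23.3 and 33.8 CPM outside, so in mouse 2 it was not higher. At the Gzmk limit, Il10-positive cells with 2 Gzmk UMIs (12 and 24 cells) had 27.5 and 32.2 CPM of Il24, against 56.2 and 46.5 CPM in those with 3 (12 and 15 cells). Over more cells the order was the opposite, with 84.1 and 85.3 CPM of Il24 in Il10-positive cells with 0 Gzmk UMIs (225 and 268 cells), against 18.9 and 33.2 CPM in those with 3 or more (63 and 89 cells).

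Within the class, 70 genes were higher and 40 lower in cells with 2 or more Il10 UMIs (170 and 205 cells) than in cells with 1 (edgeR, 0.618% and 0.353%, together 0.972% of 11320 genes). Serpine2, a serine protease inhibitor gene, had 83.5 and 67.9 CPM at 2 or more UMIs, against 36.8 and 33.9 CPM at 1 (log2 change 1.11, adjusted p = 0.000463). Furin had 84.3 and 60.04 CPM at 2 or more UMIs, against 49.8 and 30.6 CPM at 1 (0.88, adjusted p = 3.27e-05). Pparg (0.91), Nfkbia (0.85), Enah (0.78) and Metrnl (0.77) were the other most raised genes. Junb (0.51), Batf3 (0.62), Ctla4 (0.72), Il2ra (0.40), Gzma (0.40) and Gzmb (0.32) were also higher. The G2 and M phase list fell in 12 of 51 genes, with Ska1 (-0.65), Sgo1 (-0.63), Spc25 (-0.62), Ncapd2 (-0.58) and Ccna2 (-0.53) among the most lowered, beside the pseudogene Olfr1369-ps1 (-1.58). Il24 had 115 and 96.2 CPM at 2 or more UMIs, against 20.1 and 41.0 CPM at 1, without overlap, and did not pass (1.69, SE 0.38, adjusted p = 0.380). Maf (0.86, adjusted p = 0.361), Tnfrsf8 (0.21, adjusted p = 0.60) and Tcf7 (0.01, adjusted p = 0.999) did not pass either.

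**Figure D4:**
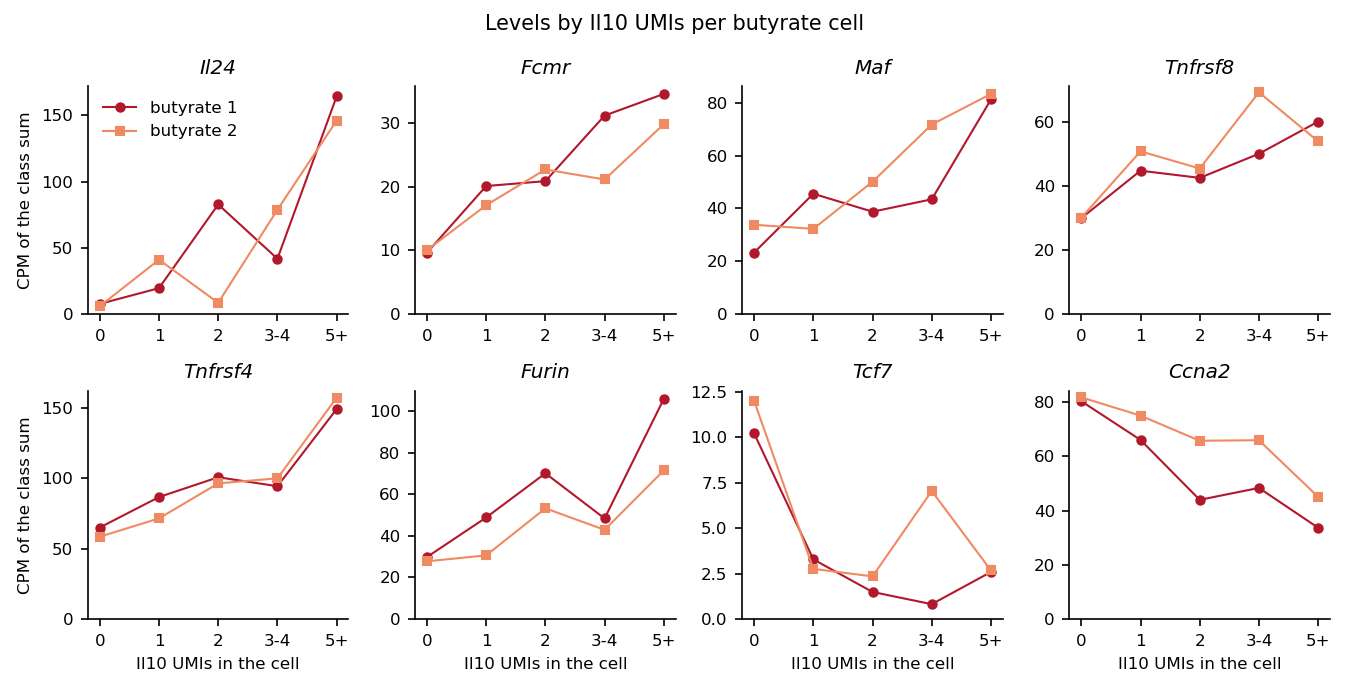
Raw CPM of genes named in the text in butyrate cells with under 3 Gzmk UMIs, grouped by Il10 count from 0 to 5 or more, 1 line per mouse. Furin and Tnfrsf4 are higher at 5 or more Il10 UMIs than at 0 in both mice, and Tcf7 is lower from 1 UMI onward.

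Across the whole range of Il10 counts, 0, 1, 2, 3 to 4 and 5 or more UMIs, raw Gzmb CPM was 8218, 10741, 11530.3, 13140.2 and 14528 in mouse 1 and 8310, 11016, 9540.1, 12347 and 15979 in mouse 2. Il24 was 7.79, 19.7, 82.7, 41.8 and 164 CPM in mouse 1 and 6.09, 41.1, 8.61, 78.8 and 146 CPM in mouse 2. Tcf7 was 10.2, 3.28, 1.49, 0.820 and 2.59 CPM in mouse 1 and 12, 2.76, 2.35, 7.04 and 2.67 CPM in mouse 2. Gzmb and Il24 were thus highest where Il10 was highest, with reversals between, and Tcf7 was lower from 1 UMI on without a further ordered fall. The classes of 2 and of 3 to 4 UMIs held only 44 to 60 cells per mouse.

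Control cultures held 23 and 35 Il10-positive cells with under 3 Gzmk UMIs in mice 1 and 2, of which 17 and 29 had 1 Il10 UMI. They were much deeper than other control cells, with medians of 35133 and 29893 UMIs, against 21554 and 20332.5 UMIs in Il10-negative control cells. Of 12665 genes, 584 were higher (4.61%) and 604 lower (4.77%) in them, 9.38% in all by edgeR, but against depth-matched control cells only 28 were higher (0.274%) and 26 lower (0.254%), 0.528% of 10234. Il24 had 56.9 and 14.6 CPM in Il10-positive control cells, against 1.38 and 2.68 CPM in Il10-negative control cells, with no overlap (log2 change 4.0, adjusted p = 0.265; depth-matched 3.23, adjusted p = 1.15e-06). Gzmb (0.48), Gzma (1.12), Emilin2 (1.07) and Tnfrsf9 (0.53) also passed against depth-matched control cells. Id3, which fell in butyrate cells, rose there by 2.12 (adjusted p = 0.00588), against 0.11 over all Il10-negative control cells (adjusted p = 0.878), and its butyrate minus control difference with depth-matched cells was -3.07 (adjusted p = 0.000173). Maf had 4.90 and 9.97 CPM in Il10-positive control cells, against 3.56 and 5.49 CPM in Il10-negative control cells, and did not pass (0.74, adjusted p = 0.324; depth-matched -0.43, adjusted p = 0.844). The Il10-positive effect differed between butyrate and control in 426 of 12665 genes (3.36%, with 1.87% higher and 1.49% lower in butyrate). With depth-matched cells it differed in 13 of 10234 (0.127%, with 0.0782% higher and 0.0489% lower). The test of this difference did not pass for Il24 (-0.45, SE 1.04, adjusted p = 0.908), Maf (0.31, SE 0.39, adjusted p = 0.789), Tnfrsf8 (-0.89, SE 0.33, adjusted p = 0.132) or Tcf7 (0.39, SE 0.43, adjusted p = 0.752). A p that misses the threshold does not show that the effects were equal.

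**Figure D5:**
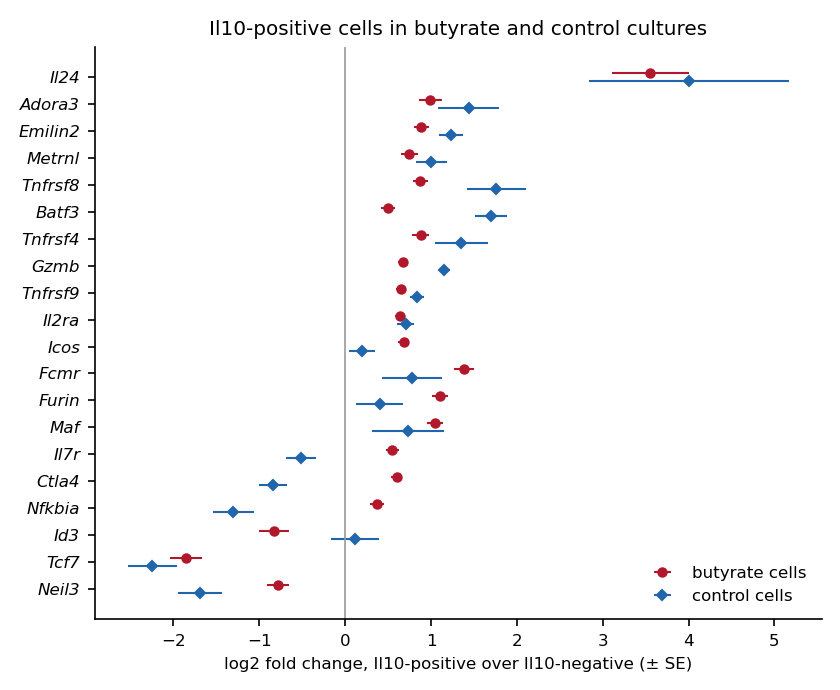
Log2 change in Il10-positive over Il10-negative cells in butyrate cultures (upper marker of each pair) and control cultures (lower marker) for genes named in the text, with standard errors from the 4-library edgeR fit. Control intervals are wider, from 23 and 35 Il10-positive cells.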

How the data were processed

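For each of 4 libraries the authors deposited a matrix of UMI counts with a row per gene and a column per barcode, not yet filtered for cells, per the file headers. Tools named in the submitters' processing notes are Cell Ranger 4 and Seurat 4.3, with build mm10. The sources used here do not state the annotation release or the treatment of intronic reads. Coordinates are from GENCODE on GRCm38. Symbols Aldoa and Ddit3 did not match a unique row and were left out. UMIs of close paralogues may be misassigned.

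Counts were summed over the cells of a class within a library (Il10-positive, Il10-negative, Gzmk-high) and tested in R 4.3.3 by edgeR 4.0.16 (TMM, filterByExpr, robust quasi-likelihood F test, library as a term, Benjamini-Hochberg adjusted p under 0.05). Classes of 1 library share that library, which is the pairing. Thus p-values measure spread between class sums of 2 cultures, not between many mice. The SE of a log2 change is its size over the root of the F statistic. Levels are TMM-scaled CPM unless called raw. Control cells were compared in a fit of all 4 libraries. Levels given beside control cells carry the TMM factors of that fit and are not on the scale of the other levels. DESeq2 1.42.0 was an alternative. Exact binomial intervals (Clopper-Pearson, 95%) cover counting error only. Scripts were tested on simulated data. No doublets were removed. An alternative left out the 2% of cells with the highest doublet scores.

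The members and gene lists were chosen with earlier results of these data known. Genes named in the text were the 12 largest increases and 12 largest decreases that passed, with at least 10 CPM in the higher class and no overlap between classes, leaving out predicted genes. Added to these were the label markers, up to 4 passing genes of each list, the 6 largest each way in the other contrasts and the 6 genes most like Il10. Genes named beyond these, among them members that did not pass, came from the lists after their values were seen. Some genes of the lists are not reported here.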

Additional observations from a re-analysis of the deposited data

Results flagged for a closer look

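For 18 named genes that passed in butyrate cells, the log2 change in Il10-positive over Il10-negative cells differed between butyrate and control cultures by the interaction term of the edgeR fit of all 4 libraries (adjusted p under 0.05). Left out of these was 1 further named gene that passed both tests but had no UMI in a class of control cells. Values below are the butyrate minus the control change. Levels in CPM are scaled by the TMM factors of this 4-library fit, so they differ from those given above for the same butyrate cells. Rgs16 differed by 2.53, Nfkbia by 1.67, Ctla4 by 1.44, Ly6c2 by 1.27 and Il7r by 1.06. Ctla4 had 119 and 135 CPM in Il10-positive and 75.9 and 92.5 CPM in Il10-negative butyrate cells, against 34.3 and 29.9 CPM in Il10-positive and 59.8 and 55.0 CPM in Il10-negative control cells. Il7r had 78.9 and 76.8 CPM in Il10-positive and 50.3 and 55.9 CPM in Il10-negative butyrate cells, against 39.2 and 25.3 CPM in Il10-positive and 46.6 and 43.6 CPM in Il10-negative control cells. Tcrg-C2 differed by 0.79, Itgb2 by 0.72, Ighm by 0.64, Cd8b1 by 0.61, Tnfrsf18 by 0.60, Cd2 by 0.60, Cd3g by 0.53, Junb by 0.45 and Srgn by 0.45. The change was smaller in butyrate for Gzmb (-0.48), Batf3 (-1.20) and Gpx8 (-2.37), and Igfbp4 (-1.46) fell in butyrate. Il10-positive control cells were deeper than other control cells (35133 and 29893 against 21554 and 20332.5 median UMIs), and with depth-matched cells only Cd2 of the 18 passed (0.70, adjusted p = 0.0465). The values for Batf3 (0.21), Gzmb (0.08), Gpx8 (-0.06) and Ighm (0.01) were then close to 0, while that for Rgs16 was 2.53 and did not pass (SE 1.05, adjusted p = 0.560). For Ctla4 the value was 1.09 and did not pass (adjusted p = 0.0545). Id3, not among the 18 (-0.94, adjusted p = 0.168), passed with depth-matched cells (-3.07, adjusted p = 0.000173). Its change in control cells depended on the Il10-negative cells used, as given above, and the depth-matched set there holds few cells.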

How the results depend on the processing

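Between Il10-positive and Il10-negative butyrate cells 1326 genes were called, and the count was 671 against depth-matched cells, 708 with thinned cells, 566 by DESeq2, 58 in cells with no Mki67 or Top2a UMI (6196 genes tested), and 36 to 90 with 1 butyrate library left out (fewer samples). Among the 1326, with the same sign, were 604 of the 671, 619 of the 708, 562 of the 566, 49 of the 58, 28 of the 36 and 74 of the 90. The count stayed within 1.5 times of 1326 with 2 or more Il10 UMIs required, no Gzmk limit, a mitochondrial limit of 5%, the highest doublet scores or largest cells left out, total scaling, no filter, or 2 classes alone. With total scaling the direction did not hold, however. It gave 465 higher and 1065 lower, and 849 of those 1530 were among the 1326 with the same sign. Without the replicate block, that is the library that pairs the classes, the count was 679. Of the 106 named genes that had passed, 20 no longer did, among them Maf, Furin, Gzma, Id3 and Ctla4. Against Gzmk-high cells, 1099 calls became 520 by DESeq2 and 551 without the block. Between 2 or more Il10 UMIs and 1, 110 became 44 with thinned cells and 34 without the block. For the butyrate and control difference, 426 became 13 with depth-matched cells and 277 without the block. The cause of these changes was not tested. The gap in the share of cells with Il10 was 11.4 to 14.9 points with 1 library left out, 8.22 at 8000 UMIs and 5.75 at 4000.

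Signs reversed, with no value passing, for Tcrg-C4 with thinned cells (-0.081) and, in cells with no Mki67 or Top2a UMI, for Osm (-0.085), Cxcr4 (-0.65), Slc2a3 (-0.12), Sqle (-0.31), Rrm2 (0.64), Pola1 (0.20), Cd8b1 (-0.13), Lrrc32 (-0.46), Tcrg-C2 (-0.64) and Tcrg-C4 (-0.48). The cause was not tested. With depth-matched cells 13 of the 106 named genes that had passed no longer did. Genes under about 10 CPM, such as Tcf7 and Il4, rest on few UMIs, and the 23 and 35 Il10-positive control cells limit every comparison with control.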
